A study of Mus musculus with 12 samples.

Results

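The B6 Trib1 leukaemia lines were compared with B6 hematopoietic cells by taking the 3 arrays titled B6 + Trib1 WT against the 3 arrays titled B6, which are 6 of the 12 arrays of the series. All probe sets except the 104 controls entered the description, 45037 of 45141. B6 cells are wild-type mouse hematopoietic cells, and the B6 Trib1 samples are lines of acute myeloid leukaemia (AML) cells that express Trib1, which the titles give as WT. The labels do not name the promoter or vector of Trib1, the number of lines or clones, or the age and sex of the mice. All groups were grown in IMDM with interleukin-3 (IL-3) at 5 ng/ml and 10% serum and received no treatment, and 100 ng of total RNA was labelled per array. The other 6 arrays are Ts1Cje cells and Ts1Cje Trib1 lines, from mice trisomic for a segment of chromosome 16. They shared the estimate of the spread and were used where the change in the B6 background was set against that in the Ts1Cje background. Expression of Trib1, leukaemic state and growth as a line went together in this comparison and cannot be told apart. The labels do not say whether the 3 arrays of a group came from separate mice, lines or cultures, so p-values cover no more than the spread of these arrays, which may be technical.

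Trib1 is a pseudokinase of the Tribbles family. It brings the ubiquitin ligase COP1 to the transcription factor C/EBP alpha, which drives granulocyte differentiation, so that its long form is degraded, and it also binds MEK1 and raises ERK signalling. Overexpression of Trib1 or Trib2 in mouse bone marrow causes AML. IL-3 supports growth of myeloid progenitors and, in culture, of mast cells and basophils.

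Values are intensities on a linear scale, given per array or as the mean ± SD of n = 3 arrays. Intensities reached a maximum between 8041 and 8420 on the 6 arrays, and values around or below the arrays' 40th percentiles, 22.0 to 23.5, are called dim. Differences are B6 Trib1 minus B6 in log2(intensity + 15), so 1 is a 2-fold difference and changes of dim genes are drawn towards 0. A gene is said to have passed where limma's moderated test across 12560 genes gave it an adjusted p under 0.05. Across genes, arrays correlated at 0.998 to 0.999 with others of their group and at 0.941 to 0.945 between the B6 groups. In all, 65.2% of genes passed, 34.1% higher and 31.1% lower in the lines, and the counts of list members below are to be read against these shares. The split moved with the scaling, from 4283 higher and 3907 lower as deposited to 4745 and 3409 with quantile normalization and 3751 and 4090 with median centring, so small differences in a common direction depend on it. A pass with at least a 2-fold difference was made by 851 genes, 6.78% of those tested, of which 336 were higher (2.68%) and 515 lower (4.1%). The groups did not overlap for 72.6% of genes, and for every gene named below as having risen or fallen they did not overlap. The median difference over all genes was 0.030, with 5th and 95th percentiles of -0.88 and 0.66. Without the filter on dim values, 45% of the 45037 probe sets passed and 3.5% passed with at least a 2-fold difference.

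**Figure D1:**
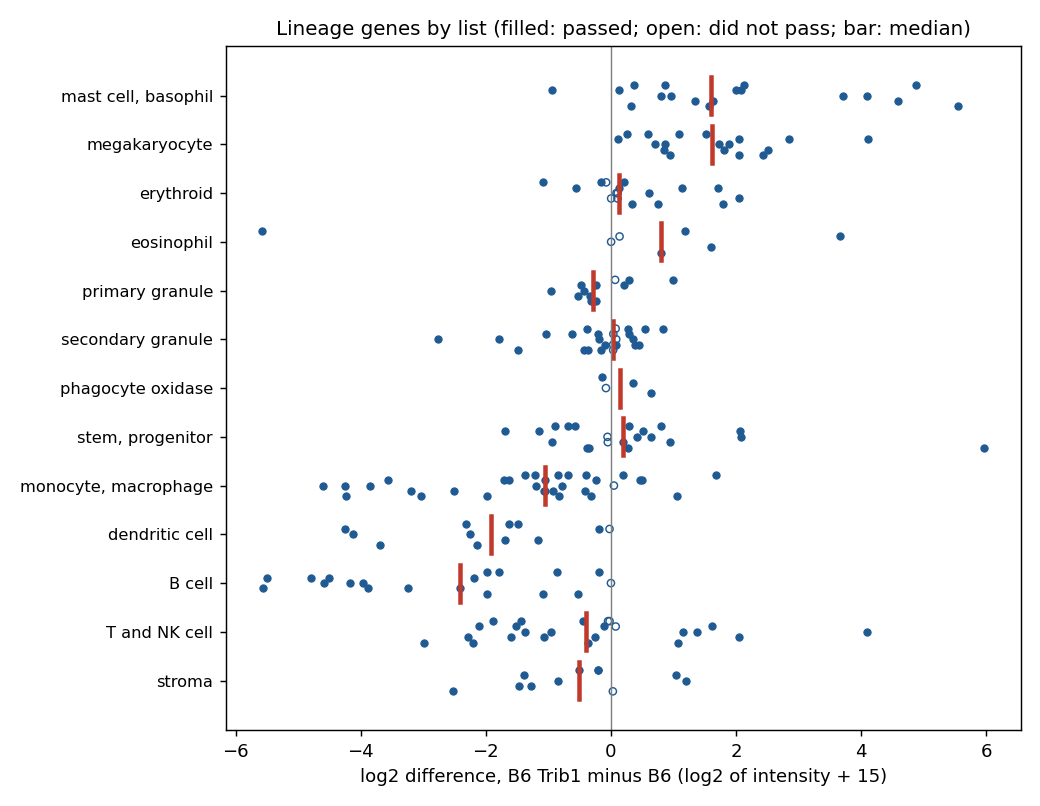
Log2 differences (B6 Trib1 minus B6, horizontal axis) of the measured members of 13 lineage lists. Each point is a gene, filled where it passed and open where it did not, and the bar is the list's median. The mast cell and basophil and megakaryocyte medians lie at 1.60 and 1.62, and the B cell and dendritic cell medians at -2.41 and -1.91.

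The lines had high intensities of mast cell and basophil genes and of megakaryocyte genes, had neutrophil granule genes at list medians of 0.036 (secondary) and -0.28 (primary), and had lower intensities of most macrophage, dendritic and B cell genes and of 15 of 24 T and NK cell genes. Because these are bulk samples, fewer cells of a type and less RNA per cell cannot be told apart. Fcer1a, the alpha subunit of the high-affinity IgE receptor, had intensities of 41.3, 43.9 and 46.6 in B6 and 2740.0, 2766 and 2758 in the lines, a difference of 5.56 (SE 0.055, adjusted p = 1.06e-16). Cpa3, the carboxypeptidase of mast cell granules, was at 307, 308 and 273 in B6 and 7662, 7387 and 7363 in the lines. In both genes every line array lay above every B6 array. At the other end, Arg1, the arginase of alternatively activated macrophages, was at 4712, 4718 and 4605 in B6 and 20.4, 23.2 and 20.4 in the lines, where it was dim. Its difference of -7.01 was the largest fall after that of the probe set of the immunoglobulin kappa J segment Igkj1, which went from 5703 ± 77 to 25.8 ± 2.87.

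The genes at the extremes belonged to several kinds of function. Tph1, which starts serotonin synthesis, had the second largest rise, from 33.9, 40.3 and 42 in B6 to 3119, 3091 and 3083 in the lines, and Maob, which breaks down amines, rose from 13.6 ± 1.27 to 732 ± 10.2. The pepsinogen gene Pga5 rose from 21 ± 3.3 to 2019 ± 25.1, and Cyp11a1, the first enzyme of steroid synthesis, from 191 ± 2.69 to 2861 ± 30.3. Scin, an actin-severing protein of platelets and mast cells, rose by 4.12, and Perp, a p53-induced membrane protein, by 4.42. Tmtc2, an O-mannosyltransferase, rose by 4.64 with other probe sets at a lower difference, the smallest being 1.75. Of the 15 largest rises, Fcer1a, Cd200r3, Cpa3, Gzmb and Cma1 are on the mast cell and basophil list. Among the 15 largest falls were Retnla, a secreted product of alternatively activated macrophages, from 2467 ± 95.1 to 76.2 ± 21.8, and Ednrb, the endothelin B receptor, from 1368 ± 49.1 to 27.4 ± 2.6. Jchain, which joins immunoglobulin polymers, fell from 781 ± 52.8 to 16.5 ± 1.97. Probe sets that can bind several transcripts, or related genes, make a value less certain, and this applies to those used for Igkj1, Bcl2a1a, Ccr9, Fcgr2b, Gbp2, H2-Aa, H2-K1, Hbb-y, Hdc, Lyz2, S100a8, Slc2a3, Trib2, Vpreb2 and Xist. With the mean of a gene's kept probe sets in place of the brightest, some of these differences moved by over 1.5 times. They became 2.63 for Mycn, 1.77 for Lif, 3.70 for Cd200r3, 3.19 for Tmtc2, 1.57 for Aldoc and 1.08 for Podxl. On the lower side they became -3.60 for Ednrb, -2.93 for Ccr9, -2.52 for Fabp4, -2.08 for Bach2, -1.84 for Sparc, -1.81 for Il6st, -1.75 for H2-Ob, -1.45 for Epas1, -1.40 for Ccnd1, -1.28 for Tcf7l2, -1.19 for Bcl6, -0.77 for Lifr, -0.76 for Irf4 and -0.61 for Tnfrsf1b. Small differences of 11 genes named with values (Cdkn1a, Cebpg, Cyba, Det1, Hoxb3, Hoxb4, Klf1, Myc, Ngp, S100a9 and Tpsab1) did not pass under at least 1 alternative setting.

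Of 26 listed mast cell and basophil genes, 18 passed the filter on dim values. Among them 17 rose and 1 fell, 11 rose at least 2-fold, and the median was 1.60, or 1.15 over the 22 members with a probe set. The list's summed intensity lay between 6163 and 6393 in B6 and between 33293 and 34158 in the lines. Ms4a2, the beta chain of the same IgE receptor, rose from 384 ± 3.9 to 1736 ± 31.9, and Fcer1g, the gamma chain it shares with other Fc receptors, rose by 0.87. Among proteases, granzyme B, Gzmb, was at 373, 402 and 402 in B6 and 6917, 6847 and 7099.9 in the lines. The chymase gene Cma1 rose from 51.2 ± 5.84 to 854 ± 69.6, and Mcpt8, a protease of basophils, from 1411 ± 29.4 to 4410.4 ± 65.5. Log2 differences of these granule proteases thus ran from 1.63 for Mcpt8 to 4.10 for Gzmb. The tryptase genes Tpsb2 and Tpsab1 rose by less, from 37 ± 0.231 to 86.3 ± 2.98 and from 22.8 ± 1.26 to 26.1 ± 0.706. Cd200r3, an activating receptor of mast cells and basophils, rose from 27.2 ± 1.38 to 1232 ± 68.5, and its relative Cd200r4 by 2.01. Hdc, which makes histamine, rose by 1.35. Gata2, a transcription factor of stem cells and mast cells, was at 341, 340.2 and 355 in B6 and 1536, 1499.5 and 1471 in the lines, with no overlap. Mitf, another factor of the mast cell lineage, rose by 0.32, and Kit, the receptor of stem cell factor, rose from 454 ± 1.18 to 802 ± 34.5. Il4, a cytokine that basophils and mast cells make, was the member that fell, from 187 ± 17.7 to 90.2 ± 6.61.

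Upstream sequences of the mast cell and megakaryocyte members with the largest rises are shown, marked for GATA motifs, which the proteins of Gata2 and Gata1 bind. Each is the 250 bases before the annotated start, on the gene's strand, from the RefSeq promoter table of GRCm38.p6, with every match of AGATAA or TGATAA on either strand in capitals.
Fcer1a, chr1:173227230-173227479, minus strand: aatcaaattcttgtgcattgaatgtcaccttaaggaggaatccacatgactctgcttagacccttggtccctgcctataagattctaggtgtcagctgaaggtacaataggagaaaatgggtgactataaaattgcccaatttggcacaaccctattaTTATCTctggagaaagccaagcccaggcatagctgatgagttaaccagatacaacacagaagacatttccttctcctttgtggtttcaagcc
Cd200r3, chr16:44943428-44943677, plus strand: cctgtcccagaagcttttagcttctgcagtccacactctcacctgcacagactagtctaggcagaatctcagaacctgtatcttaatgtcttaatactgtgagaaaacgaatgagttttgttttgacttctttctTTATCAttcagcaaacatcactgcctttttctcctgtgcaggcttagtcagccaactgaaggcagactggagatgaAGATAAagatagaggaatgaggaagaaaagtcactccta
Clec1b, chr6:129397047-129397296, plus strand: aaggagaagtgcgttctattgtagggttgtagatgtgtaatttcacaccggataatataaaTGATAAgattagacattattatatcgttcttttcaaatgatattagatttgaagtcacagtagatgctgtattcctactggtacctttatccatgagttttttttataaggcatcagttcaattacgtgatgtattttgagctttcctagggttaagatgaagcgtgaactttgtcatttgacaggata
Gp9, chr6:87777820-87778069, plus strand: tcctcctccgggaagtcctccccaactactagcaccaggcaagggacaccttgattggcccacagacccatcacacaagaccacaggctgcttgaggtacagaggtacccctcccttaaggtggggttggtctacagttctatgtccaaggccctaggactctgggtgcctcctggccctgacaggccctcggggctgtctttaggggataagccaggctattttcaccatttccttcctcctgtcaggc
Matches began 92 bases before the start of Fcer1a, 115 and 39 before that of Cd200r3 and 189 before that of Clec1b, and these letters were not in the window of Gp9. Windows with a match were found for 6 of 16 mast cell and basophil genes with an entry (37.5%) and 5 of 15 megakaryocyte genes (33.3%), against 9.94% of the 10127 tested genes with an entry and 17.0% of all 27025 windows. The share was also 22.7% among secondary granule genes (5 of 22) and 22.2% among the C/EBP targets described below (4 of 18), and it was 17.2% among genes at least 2-fold higher and 10.4% among those at least 2-fold lower. A match is a description of the letters and not a binding site. The shares describe lists chosen by cell type, and a part of GATA factors in the rises was not tested.

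Megakaryocytes make platelets, and their genes rose together in the lines. All 18 of the 22 listed genes that passed the filter rose, 11 of them at least 2-fold, with a median of 1.62. Clec1b, which encodes the platelet receptor CLEC-2, was at 35.9, 41 and 42.8 in B6 and 916, 919 and 952 in the lines. The platelet glycoprotein genes Gp9, Gp1bb and Gp5, parts of the receptor for von Willebrand factor, rose by 2.85, 2.52 and 2.44. Vwf itself rose from 131 ± 5.48 to 526 ± 15.1, and integrin alpha-IIb, Itga2b, from 431 ± 18.1 to 1464 ± 39.6. Treml1, a receptor of platelet granules, and Rab27b, which serves granule secretion, rose by 2.05 and 2.06. The platelet chemokine Ppbp was at 1285, 1399.7 and 1402 in B6 and 4758, 4830.5 and 4819 in the lines, whereas Pf4, which is made with it, was bright in both groups and rose by only 0.12. The list had a summed intensity between 11258 and 11599.7 in B6 and between 24359 and 24975 in the lines.

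Erythroid genes were mixed. Of 25 listed genes 17 passed the filter, 9 rose, 3 fell and 5 did not pass, with a median of 0.14. Gata1, the factor of erythroid cells, megakaryocytes and mast cells, rose from 198 ± 2.85 to 679.6 ± 24.3, and Nfe2 from 710.4 ± 9.76 to 1582 ± 15.1. Hemgn, a nuclear protein of erythroid progenitors, rose by 1.80, and the embryonic globin Hbb-y rose from 9.99 ± 0.811 to 88.9 ± 8.94. Klf1, a defining erythroid factor, and Epor, the erythropoietin receptor, rose from 57.1 ± 0.742 to 68.5 ± 4.09 and from 54.8 ± 5.34 to 103 ± 6.1, and Aqp1, a water channel of red cells, fell by 1.08. Eosinophil genes were also divided, with 4 rises and 1 fall among the 7 of 12 listed genes that passed the filter. Siglecf, a lectin of eosinophils, rose from 22.7 ± 2.45 to 465 ± 49.9 and the granule protein Prg2 from 181 ± 3.51 to 577 ± 6.02, while the eosinophil ribonuclease Rnase2a was at 1366, 1244 and 1359.8 in B6 and 12.4, 13.4 and 13.1 in the lines. Epx, the eosinophil peroxidase, did not pass (184 ± 16.1 and 203 ± 7.12).

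**Figure D2:**
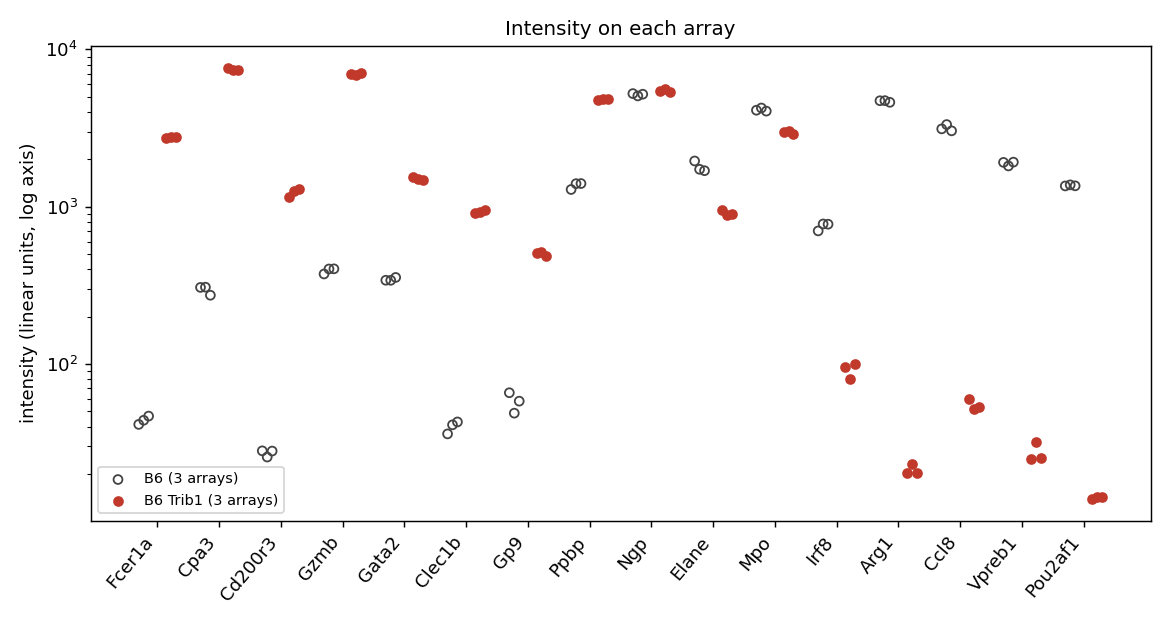
Intensity (log axis) on each of the 6 arrays for 16 genes, with open circles for B6 and filled circles for B6 Trib1. Mast cell and megakaryocyte genes such as Fcer1a and Clec1b lie higher in the 3 line arrays, B cell and macrophage genes such as Vpreb1 and Arg1 lie lower, and the circles of the neutrophil gene Ngp lie close together.

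Most neutrophil granule genes differed by less than 2-fold, and more of them fell than rose. Of 27 listed secondary and tertiary granule genes, 25 passed the filter. Among them 8 rose, none of them 2-fold, 12 fell and 5 did not pass. At least a 2-fold fall was found for 4, which is 16% of the measured members against 4.1% of all genes. The median of 0.036 was close to that of all genes. Ngp, a granule protein of the cathelicidin family, was at 5231, 5055 and 5184 in B6 and 5464, 5584 and 5390.1 in the lines. The alarmin genes S100a8 and S100a9 fell (-0.20 and -0.093), from 6903 ± 99.2 and 7235 ± 72.7, and lactoferrin, Ltf, fell too (-0.15). Lipocalin 2, Lcn2, which binds bacterial siderophores, did not pass (1992 ± 68.8 and 2047 ± 44). The members that fell at least 2-fold were the gelatinase Mmp9, from 409.6 ± 38.8 to 47.2 ± 1.44, the surface protein Cd177 (-1.79), Olfm4 (-1.49) and the antimicrobial peptide gene Camp, from 1947 ± 35 to 942 ± 33.7. Rises were led by Padi4, which citrullinates histones (0.83), and annexin A1, Anxa1 (0.54). Of 15 listed primary granule genes 12 passed the filter, of which 3 rose, 8 fell and none changed 2-fold, with a median of -0.28. Elastase, Elane, was at 1951, 1727 and 1692 in B6 and 952, 890.4 and 903 in the lines, and myeloperoxidase, Mpo, fell from 4128 ± 97.2 to 2964 ± 59.4. Serpinb1a, an inhibitor of these serine proteases, rose from 1198 ± 55.3 to 2412 ± 163, and lysozyme, Lyz2, rose by 0.30. Of the phagocyte oxidase, which makes superoxide, 4 of 6 listed genes were measured, with the catalytic subunit Cybb up by 0.36, Rac2 up by 0.65 and Cyba down (log2 difference -0.13).

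Trib1 and the genes of its axis were examined next. Trib1, by its brightest probe set, was at 78.5, 82.1 and 68.2 in B6 and 47, 48.7 and 43.1 in the lines, a difference of -0.57 (adjusted p = 3.33e-06). Whether this probe set reads the introduced Trib1 is not stated, so its level is no check of the labels. The relative Trib2 fell from 70.6 ± 2.56 to 20.9 ± 1.17 and Trib3, which is induced by stress, fell by 0.75. Cebpa, which encodes C/EBP alpha, was at 409, 384 and 407 in B6 and 971, 922 and 897 in the lines, a rise of 1.19 (adjusted p = 1.33e-09) with no overlap. These are transcript levels and say nothing of the protein that Trib1 acts on. The other measured C/EBP genes fell by their brightest probe sets, with Cebpd from 674 ± 13.1 to 295 ± 8.07, Cebpb (-0.37) and Cebpg (-0.10). Over the 3 kept probe sets of Cebpb the differences ran from -0.39 to 0.063. Ddit3, a C/EBP relative of stress responses, fell by 0.33. Among genes of the COP1 ligase, Det1 and Cul4a fell (-0.14 and -0.37), and Ddb1 and Cul4b did not pass (0.086 and 0.016). In all 12 of 15 listed genes of this axis were measured, and 1 rose, 9 fell and 2 did not pass. The gene of COP1 itself was not among those measured.

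Targets of C/EBP factors in granulocytes were lower more often than higher. Of 20 listed genes 19 passed the filter, 4 rose, 14 fell and 1 did not pass, with a median of -0.31, and 5 fell at least 2-fold, 26.3% of the measured members against 4.1% of all genes. This list shares genes with both granule lists. After Mmp9 the largest falls were those of Csf3r, the receptor of granulocyte colony-stimulating factor, from 379.8 ± 34.3 to 121 ± 7.87, the repressor Gfi1, from 417 ± 2.78 to 173 ± 5.03, and the interleukin-6 receptor Il6ra, from 123 ± 10.8 to 50.7 ± 3.37. Il6ra had 2 kept probe sets, with differences of -1.07 and 0.021, so its 2-fold fall rested on the brighter one. Itgam, which encodes CD11b, rose from 285 ± 17.4 to 404 ± 11.7. The windows of Csf3r and Gfi1 are shown, being the members with the largest falls that had an entry, with matches of TTGCNNAA on either strand, a form of the C/EBP motif, in capitals.
Csf3r, chr4:126024409-126024658, plus strand: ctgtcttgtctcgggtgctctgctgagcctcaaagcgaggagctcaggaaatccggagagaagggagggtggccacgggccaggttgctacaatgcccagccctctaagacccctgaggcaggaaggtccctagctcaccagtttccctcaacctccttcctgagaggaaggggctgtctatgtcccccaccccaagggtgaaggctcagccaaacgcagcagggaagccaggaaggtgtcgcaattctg
Gfi1, chr5:107725806-107726055, minus strand, the first of 2 entries: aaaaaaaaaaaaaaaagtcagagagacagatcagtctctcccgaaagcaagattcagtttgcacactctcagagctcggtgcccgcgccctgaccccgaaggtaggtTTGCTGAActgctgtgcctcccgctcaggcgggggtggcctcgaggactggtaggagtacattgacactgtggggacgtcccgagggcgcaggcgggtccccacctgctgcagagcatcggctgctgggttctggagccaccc
A match began 143 bases before the start of Gfi1, and the letters were not in the window of Csf3r. Matches were found for 8 of 18 listed targets with an entry (44.4%) against 7.51% of tested genes with an entry. Secondary granule genes, which overlap this list, had 36.4%, and 4 of 16 mast cell and basophil genes had a match. The list was chosen for known C/EBP control, so this share is a description of it.

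**Figure D3:**
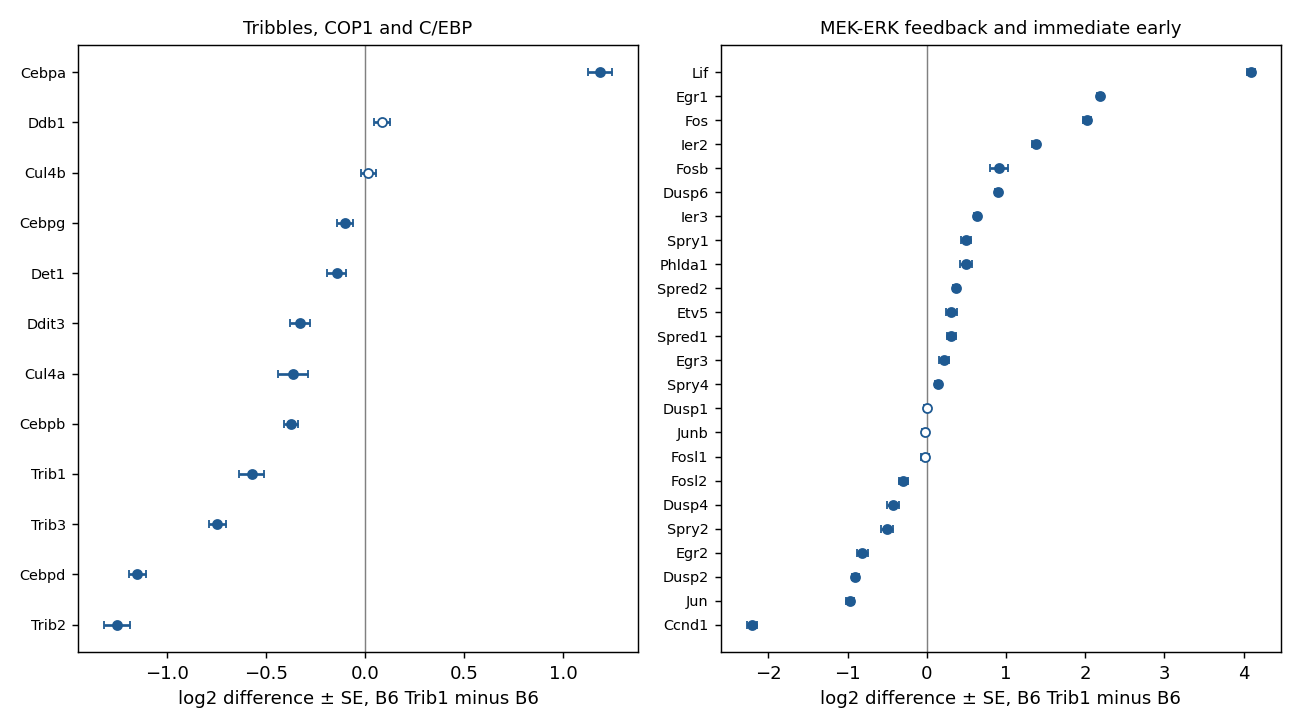
Log2 differences (B6 Trib1 minus B6) with standard errors for the measured genes of the Tribbles and C/EBP axis and of MEK-ERK feedback and immediate early response. Filled circles passed and open circles did not. Cebpa lies at 1.19 while Cebpd lies at -1.15, and Lif, Egr1 and Fos lie highest among the MEK-ERK genes.

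Genes that respond to MEK-ERK signalling included large rises. Of 26 listed feedback and immediate early genes 24 passed the filter, 14 rose, 7 fell and 3 did not pass, with 4 rising at least 2-fold (16.7% of the measured members, against 2.68% of all genes) and 1 falling that much. Lif, a cytokine of the interleukin-6 family, was at 79.7, 75.7 and 83.4 in B6 and 1624, 1536 and 1636 in the lines for its brightest probe set. Over its 3 kept probe sets the differences ran from 0.13 to 4.09. The immediate early factors Egr1 and Fos were at 532, 536 and 537 and at 293, 266 and 289 in B6, and at 2437, 2539.5 and 2462 and at 1209, 1167 and 1198 in the lines. Ier2 rose from 517 ± 5.07 to 1362 ± 26.7. Feedback inhibitors of the pathway moved less and in both directions. The ERK phosphatase Dusp6 rose from 429.7 ± 6.85 to 813 ± 13.1, and Spry1, Spred2 and Spred1 rose by 0.50, 0.37 and 0.31, while Spry2, Dusp4 and Dusp2 fell (-0.50, -0.42 and -0.90). The probe sets of Spry2 passed in opposite directions. Cyclin D1, Ccnd1, fell from 427 ± 28 to 81 ± 8.82, and Jun fell by 0.97.

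DNA replication and mitosis genes changed little, whereas single regulators changed strongly. Mycn, a member of the MYC family, had the largest rise of all genes. Its brightest probe set was at 45.5, 52 and 38 in B6 and 3773, 3821 and 3634 in the lines. Its other kept probe sets rose too, but by less, the smallest difference being 0.89, so the size depended on the probe set. Myc rose by 0.20, from 1050.2 ± 21.4 to 1209 ± 80. Cdkn2a, which encodes the tumour suppressors p16INK4a and ARF, was dim in B6 at 11.7, 12.9 and 12.4 and stood at 236, 275 and 241 in the lines (adjusted p = 7.59e-15). The neighbouring inhibitor gene Cdkn2b rose from 29.4 ± 1.33 to 124 ± 6.54 and Rprm, which p53 induces to halt the cell cycle, from 51.6 ± 6.5 to 237 ± 21.4. Cdkn1a, which encodes p21, rose by 0.16, the proapoptotic p53 target Bbc3 by 0.82, and Plk2 and Gadd45b fell (-1.29 and -1.16). In the list of CDK inhibitors and p53 targets, 15 rose, 7 fell and 5 did not pass among 27 of 30 listed genes. Among 36 of 37 listed DNA replication genes 16 rose, 4 fell and 16 did not pass, none reached 2-fold, and the median was 0.091. The helicase subunit Mcm3 rose by 0.85 and the clamp loader Rfc2 by 0.81, and Uhrf1, which keeps DNA methylation at replication, fell by 0.43. Of 28 measured G2 and mitosis genes 15 rose, 1 fell and 12 did not pass, again with none at 2-fold, and the member that fell was Mki67, the Ki-67 antigen (-0.20). In the list of MYC and ribosome biogenesis genes, which includes Mycn and Myc, 3 of 28 measured members rose, 13 fell and 12 did not pass. Rrp12, a ribosome export factor, and Odc1, which makes polyamines, fell (-0.79 and -0.61).

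Transcription factors of myeloid fate divided into those that rose and those that fell. Of 30 listed factors 29 passed the filter, 13 rose, 11 fell and 5 did not pass, and 15 passed with at least a 2-fold difference, 51.7% against 6.78% of all genes. Besides Gata2, Gata1 and Egr1, the factors that rose included Tal1, a partner of GATA factors, from 443 ± 27.5 to 1140.0 ± 20.8, Gfi1b (0.86), Runx1 (0.62) and Id1 (1.04). Falls were found for Irf8, a factor of monocytes and dendritic cells, at 701, 776 and 773 in B6 and 95.3, 80.3 and 100.2 in the lines, and for Klf4, from 503 ± 4.98 to 57.9 ± 13.1. The macrophage factor Maf and the B-lineage factor Bach2 fell (-2.77 and -3.32). The PU.1 gene Spi1 was at 637 ± 37.5 in B6 and fell to 449.9 ± 9.93, and Zeb2 and Irf4 fell (-1.23 and -1.49). Myb, a factor of progenitors, and Erg did not pass (-0.049 and 0.0079).

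Stem and progenitor genes moved in both directions. Of 28 listed genes 21 passed the filter, 11 rose, 8 fell and 2 did not pass. The median was 0.20, or -0.012 over the 24 members with a probe set. At least a 2-fold rise was found for 14.3% of the measured members, against 2.68% of all genes. Such a fall was found for 9.52%, against 4.1%. Mycn, described above as the largest rise of all genes, is a member. The summed intensity, which includes it, was 7835 to 7874 in B6 and 14019 to 14113 in the lines. Angpt1, the ligand of Tek, rose from 84.6 ± 5.81 to 399 ± 16.3 and Cd34 from 382 ± 8.28 to 514 ± 12, whereas the receptor Flt3 was at 207, 235 and 206 in B6 and 60.9, 58.1 and 51.1 in the lines. Prom1 and Hlf fell (-1.15 and -0.95). HOX genes, which are high in many leukaemias, had low intensities here, where the offset draws differences towards 0. Of 22 listed HOX, MEIS and PBX genes 12 passed the filter, and none reached a 2-fold difference in log2(intensity + 15). Hoxa9 fell from 77.7 ± 9.18 to 55.7 ± 1.24. Hoxa5 fell from 29.3 ± 2.89 to 14.7 ± 0.851, a difference of -0.58, and Hoxb4 fell by 0.17. Meis1, a cofactor of HOX proteins, rose from 214 ± 8.32 to 313 ± 8.25 for its brightest probe set, with 0.049 as its smallest difference. Hoxb3 rose by 0.11 with probe sets that opposed each other, the mean of which gave a difference of -0.034. The 7 others (Hoxa3, Hoxa11, Hoxb2, Meis2, Pbx2, Pbx3 and Pknox1) had differences between -0.095 and 0.13 and did not pass.

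Macrophage genes were mostly lower in the lines. Of 34 listed monocyte and macrophage genes 32 passed the filter, 5 rose, 26 fell and 1 did not pass. Among them 17 fell at least 2-fold, 53.1% against 4.1% of all genes, and the median was -1.05. The scavenger receptor genes Mrc1 and Cd163 fell from 4147 ± 61.8 to 208 ± 19.2 and from 517 ± 15.7 to 13.1 ± 1.64. Ly86, a partner of a Toll-like receptor relative, fell from 923 ± 29.7 to 23.8 ± 1.36. The complement genes C1qa, C1qb and C1qc fell (-3.85, -3.20 and -3.03), and the lipid carrier Fabp4 fell by 3.56. Csf1r, the receptor of macrophage colony-stimulating factor, was at 464, 485 and 468 in B6 and 225, 225 and 211 in the lines. Not all members fell. Ccr2, the receptor by which monocytes leave the marrow, rose from 402 ± 19.6 to 1327 ± 72.9. Cx3cr1 rose from 36.7 ± 3.94 to 92.6 ± 13.2 and Cd14 by 0.49. The macrophage genes Adgre1 and Lpl rose too, by less than 2-fold, and Fcgr1 did not pass (0.049). The list's summed intensity was 40249.6 to 40726 in B6 and 18249.5 to 18584 in the lines, and its part in the lower MHC class II, lysosomal and chemokine genes below was not tested.

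Dendritic cell and MHC class II genes were also mostly lower. Among 12 of 18 listed dendritic cell genes, 11 fell, 10 at least 2-fold, and 1 did not pass. The falls were led by the chemokine receptor Ccr9, from 711 ± 40.3 to 23.3 ± 4.7, the factor Spib (-3.69) and Ly6d (-4.13). Spib is grouped with B-lineage genes further below. Itgax fell by less than 2-fold, and Zbtb46 was the member that did not pass. All 15 listed MHC class II genes were measured, of which 12 fell and 3 rose, with a median of -1.08. The class II chain H2-Aa was at 2022, 2119 and 1986 in B6 and 756, 759 and 892 in the lines. Ciita, the class II transactivator, fell from 144 ± 17.9 to 29 ± 4.04, H2-Ob fell by 2.78, and the invariant chain Cd74 fell from 3094 ± 178 to 1452 ± 46.3, whereas H2-Oa rose by 0.87. Class I genes differed less, with 2 rises, 7 falls and 3 members that did not pass among 12 of 16 listed genes. Their transactivator Nlrc5 fell from 420.0 ± 10.7 to 105 ± 4.7, while H2-K1 fell by 0.20.

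Of 27 listed lysosomal genes 23 passed the filter, of which 17 fell, 7 at least 2-fold, and 3 rose. The proteases legumain, Lgmn, and cathepsins Ctsl and Ctsh fell from 1306 ± 18.1 to 102 ± 3.13, from 4829.7 ± 70.1 to 806 ± 29.1 and from 1127 ± 9.13 to 268 ± 10.8. Among Fc and inhibitory receptors 14 rose, 9 fell and 4 did not pass of 27 measured. The inhibitory receptors Fcgr2b and Sirpa fell (-1.65 and -1.63), the beta-glucan receptor Clec7a fell from 2316 ± 11.9 to 695 ± 26.5, and Cd244a and Pilrb1 rose by 2.05 and 1.87. In the list of Toll-like receptors and their adaptors 12 rose, 12 fell and 1 did not pass. Tlr1 and Tlr4 fell (-2.40 and -1.60), Tlr2 rose by 0.61, and Irak3, an inhibitor of their signalling, rose by 1.21.

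Chemokines of macrophages were among the largest falls. Of 36 listed chemokines and receptors 28 passed the filter, 8 rose, 18 fell and 2 did not pass, with 10 at least 2-fold lower (35.7%, against 4.1% of all genes). Ccl8 was at 3121, 3324 and 3032 in B6 and 59.7, 51.6 and 53.5 in the lines, and Ccl24, an attractant of eosinophils, at 4243, 4283 and 4152 and 118, 117 and 105. Ccl12, Ccl7 and Ccl2 fell (-4.55, -3.78 and -2.66). Ccl3 and Ccl5 rose by 0.39 and 0.83, and Ccl6 and Ccl9, which were bright in both groups, had differences of 0.23 and -0.40. Among 29 measured targets of inflammatory NF-kB signalling 21 fell and 4 rose, with a median of -0.58. Cd83, a surface marker of activation, fell from 878 ± 18.5 to 57.5 ± 13.9. The pathway's own subunits and inhibitor Relb, Nfkb2 and Nfkbia fell (-1.62, -1.20 and -1.14). Against this direction interleukin-6, Il6, was at 794, 779 and 810.1 in B6 and 2492, 2483 and 2602 in the lines, and Tnf rose by 0.84.

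B cell genes were lower in the lines, and T and NK cell genes moved in both directions. Of 22 listed B cell genes 19 passed the filter, 18 fell, 15 at least 2-fold (78.9%), and 1 did not pass, with a median of -2.41. Vpreb1, which serves B-cell progenitors in place of a light chain, was at 1911, 1814 and 1918 in B6 and 25, 31.7 and 25.1 in the lines. The coactivator Pou2af1 fell from 1362 ± 11.9 to 14.2 ± 0.284, the antigen receptor chain Cd79b from 1196 ± 29.5 to 38.8 ± 9.93, Ms4a1, which encodes CD20, from 988 ± 52.2 to 21 ± 2.42, and the factor Ebf1 from 379 ± 23.5 to 11.7 ± 1.26. Pax5 was dim in both groups (23.1 ± 1.9 and 23.1 ± 2.55). The B cell list summed to between 10617 and 10880.4 in B6 and between 719.5 and 777 in the lines. Among 24 of 29 listed T and NK cell genes 6 rose, all at least 2-fold, 15 fell, 10 of them at least 2-fold, and 3 did not pass, with a median of -0.40. The list's summed intensity was nonetheless higher in the lines, 10984 to 11267 against 3922 to 4148 in B6, and Gzmb, described above, held much of it. The T-cell receptor chains Cd3d and Cd3g fell from 229 ± 4.86 to 35.2 ± 5.28 and from 87 ± 2.46 to 22.5 ± 2.51, and Gimap4 fell by 2.98. The members that rose were, besides Gzmb, granzymes A and C (Gzma, 1.61, and Gzmc, 2.05), the adaptor Lat (1.38), Thy1 (1.15) and Nkg7 (1.07). Lat and Gzmb are also made by mast cells. Of 19 listed stromal genes 11 passed the filter, 8 fell and 2 rose, and Sparc, a matrix protein, fell from 334 ± 17 to 45.7 ± 1.04. Pecam1, which platelets also carry, rose by 1.21.

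Cytokine receptor genes moved in both directions. Of 40 listed receptors 35 passed the filter, 13 rose, 17 fell and 5 did not pass, and at least a 2-fold rise was found for 4 and such a fall for 12. The receptor for IL-3, on which all samples were grown, pairs an alpha chain with a beta chain. Csf2rb2, the beta chain specific to IL-3 in mice, was at 1125, 1141 and 1113 in B6 and 3536, 3643 and 3713 in the lines. The common beta chain Csf2rb rose from 3366 ± 94.8 to 4476 ± 48.7 and the alpha chain Il3ra by 0.46. Interleukin-18 receptor chains Il18rap and Il18r1 rose by 1.21 and 1.01. The largest fall was that of Il6st, the signalling chain gp130 shared by interleukin-6 and Lif, from 756 ± 24.5 to 85.1 ± 7.24, and Lifr, its partner for Lif, fell from 232 ± 7.35 to 43 ± 4.73. Il10rb, Il1r1 and Tnfrsf1b fell (-1.51, -1.43 and -1.21). STAT5 targets moved both ways, with 9 rises, 5 falls and 3 members that did not pass of 17 measured. Podxl and Ccnd2 rose by 1.77 and 0.73, Bcl6 and Socs3 fell (-2.15 and -1.79), and Cish did not pass (-0.0038). In the BCL2 family the antiapoptotic Bcl2 rose from 427 ± 5.56 to 930.1 ± 47.8, Bcl2l1 rose by 0.46, and Bcl2a1a fell from 1384 ± 14.1 to 536 ± 40.8. The proapoptotic Bcl2l11 and Bak1 fell (-0.73 and -0.84), with probe sets of Bak1 in opposite directions. Of 27 measured genes in this list, 12 rose, 9 fell and 6 did not pass.

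The interferon list had 35 of 41 genes measured, of which 20 rose, 6 of them at least 2-fold, and 9 fell. Usp18, which damps interferon signalling, was at 149, 142 and 143 in B6 and 554, 526 and 514 in the lines, and the antiviral Rsad2 rose from 58.5 ± 4.38 to 213 ± 9.47. Ifi27l2a and Rtp4 rose by 1.42 and 1.39. Among the falls were Gbp3, Gbp2 and Irf1, which also respond to interferon gamma (-1.69, -1.15 and -0.89). Adhesion genes included several large rises. Among 28 of 33 listed integrins and other adhesion genes 16 rose, 8 fell and 4 did not pass, and 8 rose at least 2-fold (28.6%, against 2.68% of all genes). Integrin chains Itgae and Itgb7, which pair with each other, rose from 57.1 ± 2.9 to 325 ± 15.8 and from 323 ± 13.3 to 1125 ± 30.8, and Itga4 and Itga6 rose by 1.16 and 1.14. Emcn, a sialomucin of endothelial and stem cells, fell by 1.85.

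**Figure D4:**
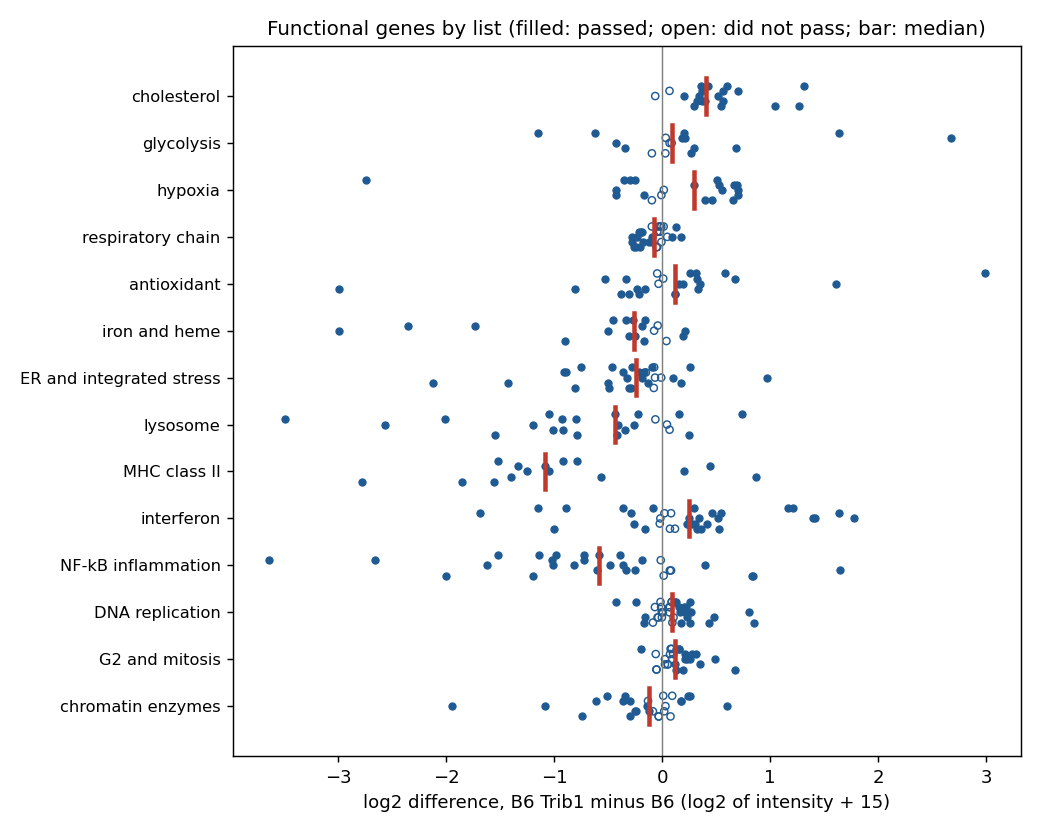
Log2 differences (B6 Trib1 minus B6) of the measured members of 14 functional lists, drawn as in the plot of lineage lists. The cholesterol list has its median at 0.41, the MHC class II list at -1.08, and the DNA replication and mitosis lists at 0.091 and 0.12.

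Among the metabolic lists, cholesterol genes mostly rose. Of 26 listed genes of cholesterol synthesis and uptake 20 passed the filter, 18 rose, 3 at least 2-fold, and 2 did not pass, with a median of 0.41. Lss, Tm7sf2 and Nsdhl, which act after squalene, rose by 1.31, 1.26 and 1.05, and Fdps rose from 2016 ± 27.6 to 3071 ± 62.1. Endoplasmic reticulum and integrated stress genes numbered 28, with 19 falls, 4 rises and a median of -0.25. Atf5 and Nupr1 fell from 639.6 ± 32.6 to 135 ± 8.59 and from 391 ± 15.1 to 136 ± 10.6, and Ppp1r15a, which restores translation, rose by 0.97. Of 18 iron and heme genes 13 fell and 2 rose. Hmox1, the heme oxygenase, was at 937, 936 and 916 in B6 and 109, 98 and 105 in the lines, and the iron transporter of phagosomes, Slc11a1, fell by 2.35. Antioxidant and glutathione genes were mixed (13 rose, 9 fell and 3 did not pass). Alox5, the lipoxygenase of leukotriene synthesis, was at 310.2, 302 and 295 in B6 and 2452, 2543 and 2499 in the lines, and Nqo1 rose from 76.2 ± 3.48 to 265 ± 39.2. In glycolysis 8 of 17 measured genes rose and 4 fell, with Aldoc up by 2.67, the glucose transporter Slc2a3 up by 1.63 and Hk3 down (log2 difference -1.15). Of 21 hypoxia genes 11 rose and 7 fell, and Epas1, which encodes HIF-2 alpha, fell from 364 ± 14.4 to 41.5 ± 1.56. Of 28 respiratory chain genes 13 fell and 3 rose, with no 2-fold difference and a median of -0.071.

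For 27 of 33 listed DNA and histone modifying enzymes there were 13 falls and 5 rises, mostly small. The chromatin organiser Satb1 fell from 662 ± 2.45 to 161 ± 11.4 and the methyltransferase Dnmt3b from 469 ± 6.02 to 213 ± 7.2, and the demethylase Kdm5b rose by 0.60. Among 25 of 32 listed Wnt, Notch and TGF-beta pathway genes 5 rose, 15 fell and 5 did not pass. The Wnt effector Tcf7l2 and the coreceptor Nrp1 fell (-1.92 and -1.69), while Hes1, a target of Notch, and Ltbp1, which anchors latent TGF-beta, rose from 44.1 ± 3.91 to 153 ± 11.6 and from 26.8 ± 0.538 to 104 ± 10.3. Both Xist, which is made from the inactive X chromosome, and the Y-linked genes Eif2s3y, Kdm5d and Uty were above the dim range in each group. Xist was at 1322, 1313 and 1324 in B6 and 784, 798 and 769.6 in the lines, a difference of -0.74, whereas Kdm5d and Uty rose by 0.40 and 0.52 and Eif2s3y did not pass (534 ± 23.5 and 558 ± 42.6).

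The same change was measured in the Ts1Cje background with no array in common. Across the 12560 genes, which are not independent replicates, the changes in the 2 backgrounds correlated at 0.834 (Pearson) and 0.643 (Spearman), given as a description. Of the 851 genes that passed with at least a 2-fold difference in B6, 840 had the same sign in Ts1Cje. For 664 of the 851 (78.0%) the Ts1Cje change passed too with at least a 2-fold difference in that direction. Of all genes, 10.2% passed there with at least a 2-fold difference in either direction, 4.16% higher and 6.06% lower. The difference between the 2 changes passed for 6109 genes (48.6%), and with a size of at least 2-fold for 414 (3.3%). Granulocyte and macrophage genes held many of these. For 22 of the 25 measured secondary granule genes the difference between the changes passed at 2-fold or more, and their median was 0.036 in B6 and -2.40 in Ts1Cje. The Cybb change was 0.36 in B6 and -2.45 in Ts1Cje, a difference of 2.81 (adjusted p = 3.57e-12). Among monocyte and macrophage genes 25 of 32 differed by at least 2-fold, with medians of -1.05 and -2.63. Among other lists the mast cell and basophil medians were 1.60 in B6 and 0.79 in Ts1Cje, and the megakaryocyte medians 1.62 and 1.79. The difference between the changes passed for 12 of 18 mast cell and basophil genes and 16 of 18 megakaryocyte genes, against 48.6% of all genes. In each list 2 of 18 differed by at least 2-fold, against 3.3% of all genes. They were Fcer1a (1.22) and Mcpt8 (1.14), and Rab27b (-1.65) and Mmrn1 (-1.39). B cell genes had medians of -2.41 and -1.57 in B6 and Ts1Cje, and 9 of 19 differed by at least 2-fold. For ribosome biogenesis genes 25 of 28 differed between the backgrounds, none by 2-fold, with medians of -0.095 and 0.32. Each comparison between backgrounds rests on the Ts1Cje cells as much as on the B6 cells.

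**Figure D5:**
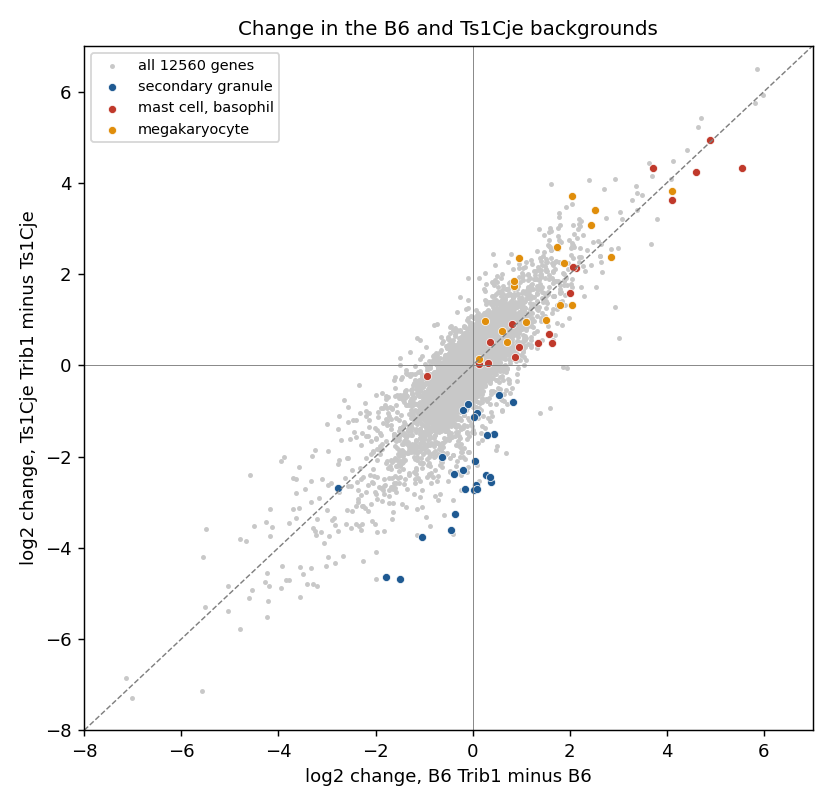
Change in the Ts1Cje background (vertical axis, Ts1Cje Trib1 minus Ts1Cje) against the change in the B6 background (horizontal axis, B6 Trib1 minus B6), both in log2, for 12560 genes in grey. Secondary granule genes (median 0.036 in B6 and -2.40 in Ts1Cje) mostly lie below the diagonal, and most mast cell and megakaryocyte genes lie nearer to it.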

How the data were processed

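RNA of 12 samples in 4 groups of 3 was hybridised to 1-colour Affymetrix mouse arrays, 1 array per sample. The deposited values are intensities on a linear scale, and per the submitters' processing notes the authors used MAS5, of which scaling and version are not given in the sources used here. The probe sets are of a perfect-match array, on which MAS5 as usually run is not defined, so the summary step is unsettled. No further normalization was applied. The log2 of intensity + 15 was computed, probe sets above the array's 40th percentile in at least 3 of 12 arrays were kept, and the brightest probe set stood for each gene. Of 45037 probe sets 28898 had 1 gene symbol, 551 several and 15588 none in the platform annotation, and only the first kind entered gene-level fits, giving 12560 genes. limma 3.58.1 in R 4.3.3 was fitted on all 12 arrays with 1 mean per group and Benjamini-Hochberg adjustment over all genes, as was the difference of the B6 and Ts1Cje changes. The fit was run on simulated arrays with known changes in a small share of genes, drawn with the fit's own spread. That run checks the code and not the calls made here. The number of arrays limits the precision. The alternatives tried were no filter or one at the 60th percentile, quantile normalization or centring on medians, a floor at 15 or an offset of 1, averaged probe sets, no cross-hybridizing probe sets, trended robust moderation, the 6 arrays alone, a replicate block and leaving out each array.

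The groups compared and the 44 gene lists were chosen with earlier results of these data known. Genes were named by rule, and only a subset of those it covers is given. The rule took the 15 largest rises and falls. From each list it took up to 6 members with the largest differences among those that passed without overlap. It also took fixed members of the Tribbles and HOX lists, 16 fixed regulators, and the 8 largest differences between backgrounds each way. Of the 277 genes with values in the text, 81 fall outside it and were chosen after their values were seen: Akr1c12, Akr1c13, Akr1c18, Anxa1, Bcl2l1, C1qc, Ccl3, Ccl5, Ccl6, Ccl9, Ccnd2, Ccr2, Cd14, Cd200r4, Cd3g, Cd74, Cish, Clec10a, Clnk, Cx3cr1, Dusp2, Dusp4, Dusp6, Eif2s3y, Epx, Erg, Fcer1g, Fcgr1, Gbp2, Gfi1b, H2-K1, H2-Oa, Hbb-b2, Hdc, Hlf, Iglv1, Il10rb, Il18r1, Il18rap, Il1r1, Il4, Irf1, Irf4, Itga6, Itgam, Klf1, Lat, Lcn2, Ltf, Lyz2, Mcpt8, Mgl2, Mitf, Mki67, Mmrn1, Nfkb2, Nfkbia, Ngp, Nkg7, P2rx7, Pax5, Pf4, Ppbp, S100a8, S100a9, Sirpa, Slc6a4, Spred1, Spred2, Spry1, Spry2, Tal1, Tek, Thy1, Tlr2, Tnf, Tnfrsf1b, Tpsab1, Tpsb2, Vwf and Zeb2. The Fcer1a, Cd200r3, Clec1b and Gp9 windows were chosen likewise.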

Additional observations from a re-analysis of the deposited data

Results flagged for a closer look

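For 6109 of 12560 genes the B6 and Ts1Cje changes differed by the test of the difference itself (limma, adjusted over all genes). The 64 genes below, which are among those named with values, differed by at least 2-fold, and values are the B6 change minus the Ts1Cje change in log2. Positive differences were found for the neutrophil genes Cybb 2.81, Olfm4 3.20, Cd177 2.85, Camp 2.73, Ltf 2.57, Elane 2.37, Itgam 2.35, Lcn2 2.13, Padi4 1.63, Mpo 1.56, Anxa1 1.19, Gfi1 1.15, Ngp 1.12 and Lyz2 1.07. Positive too were the factors Cebpd 2.00, Klf4 1.49 and Spi1 1.02, and the eosinophil genes Epx 2.68, Prg2 2.52 and Rnase2a 1.56. Macrophage and receptor genes followed, with Cd14 2.26, Fcgr1 2.14, Csf1r 2.05, Pilrb1 1.91, C1qb 1.65, C1qc 1.37, Tlr2 1.61, Sirpa 1.58, Ccl2 1.53, Fabp4 1.52, Ctsh 1.47, Mrc1 1.30, Lgmn 1.07, Mgl2 1.36, Ccr2 1.03 and Clec7a 1.01. The progenitor marker Prom1 had 2.57, the reductase Akr1c18 1.66, and Fcer1a and Mcpt8 had 1.22 and 1.14.

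Negative differences were found for the B-lineage genes Vpreb2 -2.19, Vpreb1 -1.89, Ebf1 -1.86, Pou2af1 -1.36, Bach2 -1.33 and Spib -1.22. Megakaryocyte, erythroid and progenitor genes had values of Rab27b -1.65, Mmrn1 -1.39, Hbb-y -1.49, Hemgn -1.28, Tal1 -1.16, Podxl -1.57, Cd34 -1.40, Meis1 -1.20, Erg -1.05 and Angpt1 -1.02. The others were Gzma -2.36, Xist -1.65, Rprm -1.55, Nlrc5 -1.25, Bcl2 -1.18, Cd83 -1.14, Clnk -1.14 and Gimap4 -1.10.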

How the results depend on the processing

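Over the alternatives other than leaving out an array, genes that passed numbered 6579 to 9199 (main value 8190), those at least 2-fold 758 to 1029 (851), and those whose change differed between backgrounds 5433 to 6313 (6109). Leaving out each array gave 7178 to 8133, 845 to 866 and 5316 to 6859. Quantile normalization moved the median of all genes to 0.052, and median centring to 0.0083. With the replicate number as a block 8017, 851 and 5818 genes passed. The number was not taken as pairing the samples, because the labels do not say that it does. Deviations of same-numbered B6 and B6 Trib1 arrays correlated at 0.108, 0.0522 and 0.253. Of the 6 arrays, 4 correlated best with their own number, so a pairing of the arrays is not excluded. Of the 44 list medians 41 kept their sign under all alternatives run. That of stem and progenitor genes was -0.012 with no filter, that of Toll-like receptor genes -0.049 with the stricter filter, and that of HOX genes, near 0, turned positive under 5 settings, up to 0.064 with quantile normalization. Among genes named with values, Hoxb3 alone reversed, to -0.034 with the mean of probe sets. Falls to dim intensities are limited by the offset and the background.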

Other observations

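These genes were chosen after their values were seen, from the list of large changes, and get no count or test as a group. Besides Tph1 and Maob, the serotonin transporter gene Slc6a4 rose from 23.7 ± 4.55 to 389 ± 9.49. Aldo-keto reductases rose too, with Akr1c18 from 201 ± 4.33 to 1625 ± 33.6, Akr1c12 from 487 ± 4.4 to 4195 ± 65.3 and Akr1c13 from 409.5 ± 12.9 to 2543 ± 153; their sequences are alike, so their signals may not be separate. Akr1c18 breaks down progesterone, and its change was 1.27 in Ts1Cje. Clnk, an adaptor of immune receptors in mast cells, rose from 65.6 ± 0.757 to 603 ± 22.3, and P2rx7, an ATP-gated channel, rose from 81.7 ± 0.971 to 679 ± 13.9 for its brightest probe set, with 0.57 as the smallest difference among its probe sets. With the mean of probe sets the difference of P2rx7 was 2.07, and that of Akr1c12 was 3.88.

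Further genes of alternatively activated macrophages fell with Arg1, Retnla, Mrc1 and Ccl24. The galactose lectins Clec10a and Mgl2 fell from 1673 ± 50.7 to 379.6 ± 18.1 and from 912 ± 7.55 to 207 ± 14.2. In the immunoglobulin genes, the lambda variable segment Iglv1 fell from 369 ± 9.58 to 28.1 ± 4.3. The adult globin Hbb-b2 rose from 889.5 ± 12.4 to 2759 ± 23.8, with a probe set that can bind other beta globins.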
